A study of Mus musculus with 18 samples.

Results

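Proteasome subunit genes were followed through the left ventricles of mice given isoproterenol, with or without minocycline. They were taken from the deposited count table by symbol: Psma, Psmb, Psmc or Psmd followed by a digit, with at least 10 counts in 6 or more libraries. The inducible Psmb8, Psmb9 and Psmb10 and pseudogene names were left out. Of 48709 genes in the table, 44 symbols had such a name, 3 inducible and 4 pseudogene names were set aside, and Psmb11, with 0 counts in all libraries, missed the minimum. The remaining 36 genes were 8 Psma, 7 Psmb, 7 Psmc and 14 Psmd genes, and each of them was among the 13281 genes tested.

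Left ventricular polyA RNA from Wild Type male C57BL/6J mice, 12 weeks old, was sequenced in 18 libraries, 6 for each of 3 treatments. One group received isoproterenol, a catecholamine that activates β-adrenergic receptors, at 30 mg/kg/day from an osmotic pump, together with daily intraperitoneal minocycline, a tetracycline antibiotic, at 50 mg/kg. The second group received the same isoproterenol infusion with saline injections, and the control group received saline by both routes. Hearts were collected after 21 days, and no group given minocycline without isoproterenol was analysed here.

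The proteasome is the protease that degrades proteins tagged with ubiquitin. Its barrel-shaped core particle has outer rings of alpha subunits (Psma), which gate the entry, and inner rings of beta subunits (Psmb), a few of which carry the cutting sites. A regulatory particle caps the barrel: its ATPases (Psmc) unfold the substrate and open the gate, and its non-ATPase subunits (Psmd) bind and remove ubiquitin. In heart muscle the proteasome turns over contractile and damaged proteins, and its activity has long been studied in cardiac hypertrophy.

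Libraries held 14203041 to 22688664 counts. The 36 genes took 0.212 ± 0.00899% of the counts in the isoproterenol and minocycline group, 0.219 ± 0.00926% in the isoproterenol group and 0.207 ± 0.00603% in the control group (mean and SD, n = 6 each). Mitochondrially encoded genes took 40.1 to 47.7% of each library. Scaling factors of the trimmed-mean (TMM) method, which correct for such composition, were 0.944 to 1.05 in the isoproterenol and minocycline libraries, 0.998 to 1.13 in the isoproterenol libraries and 0.929 to 0.98 in the control libraries. Because the factors differed between groups, directions depend on them. Without them the median log2 fold change of all genes moved by 0.143 for isoproterenol against control and by 0.102 for both drugs against control, so that small negative values against control turned positive, while the 4 called differences of subunit genes given below stayed negative. No label says that each library came from a separate animal, and the protocol text speaks of pooled RNA, so p-values measure the spread between libraries. Nor can fewer cells of a type and less RNA per cell be told apart in whole tissue.

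Marker genes of some cell types in the heart moved with the groups. The 6 cardiomyocyte markers were Myh6, Tnnt2, Tnni3, Actc1, Ryr2 and Myl2. Fibroblast markers were Col1a1, Col1a2, Col3a1, Dcn, Pdgfra and Tcf21, and macrophage markers Cd68, Csf1r, Adgre1, Cd163, Lyz2 and C1qa. The summed level of 6 cardiomyocyte markers was 47340 to 57470 CPM (counts scaled to the library's TMM-adjusted size) in the isoproterenol and minocycline group, 47590 to 52150 CPM in the isoproterenol group and 56370 to 63500 CPM in the control group. That of 6 fibroblast markers was 854 to 1385, 929.6 to 1256 and 669 to 881 CPM in the same order of groups, and that of 6 macrophage markers 212 to 359.8, 223 to 312 and 158 to 199.0 CPM. With both drugs against control, 2 of 6 cardiomyocyte markers were called lower, and 5 of 6 fibroblast and 4 of 6 macrophage markers higher. Of all genes tested, 9.05% were lower and 10.2% higher. With isoproterenol against control the counts were 2, 3 and 4, beside 5.62% of all genes lower and 6.94% higher. Of 5 endothelial markers, 0 were called with isoproterenol and 1 was higher with both drugs against control. Of 5 smooth muscle and pericyte markers, 1 and 2 were higher in these comparisons. The 4 atrial markers summed to 99.1 to 819, 74.0 to 386 and 128 to 555 CPM in the same order of groups, with 0 called. B cell, T cell and liver markers were too low to test, at 1 to 30 summed counts per library and list. The part of these shifts in the subunit values was not tested.

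Levels can be compared between genes only per transcript length, for which the authors' length-normalised TPM values were used. Averaged over the 18 libraries, 34 of the genes (all but Psma8 and Psmc3ip) spanned 34.6-fold, with a median of 41.6 TPM. Psmb1, a beta-ring subunit without a cutting site, had the highest level at 109.7 TPM. Psmd5, a chaperone in the assembly of the regulatory particle that leaves the finished complex, had the lowest at 3.17 TPM, and the other base chaperones, Psmd9 and Psmd10, stood next to it at 3.43 and 6.25 TPM. By name these chaperones are counted here among the 34 subunit genes. The next lowest gene was Psmd11 at 12.28 TPM. Median levels were 71.3 TPM for the 7 beta-ring genes, 63.4 TPM for 6 ATPase genes, 47.8 TPM for 7 alpha-ring genes and 23.3 TPM for the 14 non-ATPase genes. Psmd14, the deubiquitinase of the lid, had 16.1 TPM, and Psmd4, a ubiquitin receptor, had 40.4 TPM.

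Psma8 and Psmc3ip stood apart from the rest. Psma8 encodes an alpha subunit of the testis proteasome and had 155 counts over all libraries, at 0.407 TPM. Psmc3ip encodes a factor of meiotic recombination, not a proteasome subunit, and matched by its name only. It had 609 counts, and the overlapping gene Mlx on the other strand had 4697. Whether reads were counted by strand is not given in the sources used here, so its values are uncertain, and the medians over the genes and by role are also given without both genes where these belong to the set. Likewise Sirt3 overlaps Psmd13 on the other strand and had 56.3% as many counts.

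**Figure D1:**
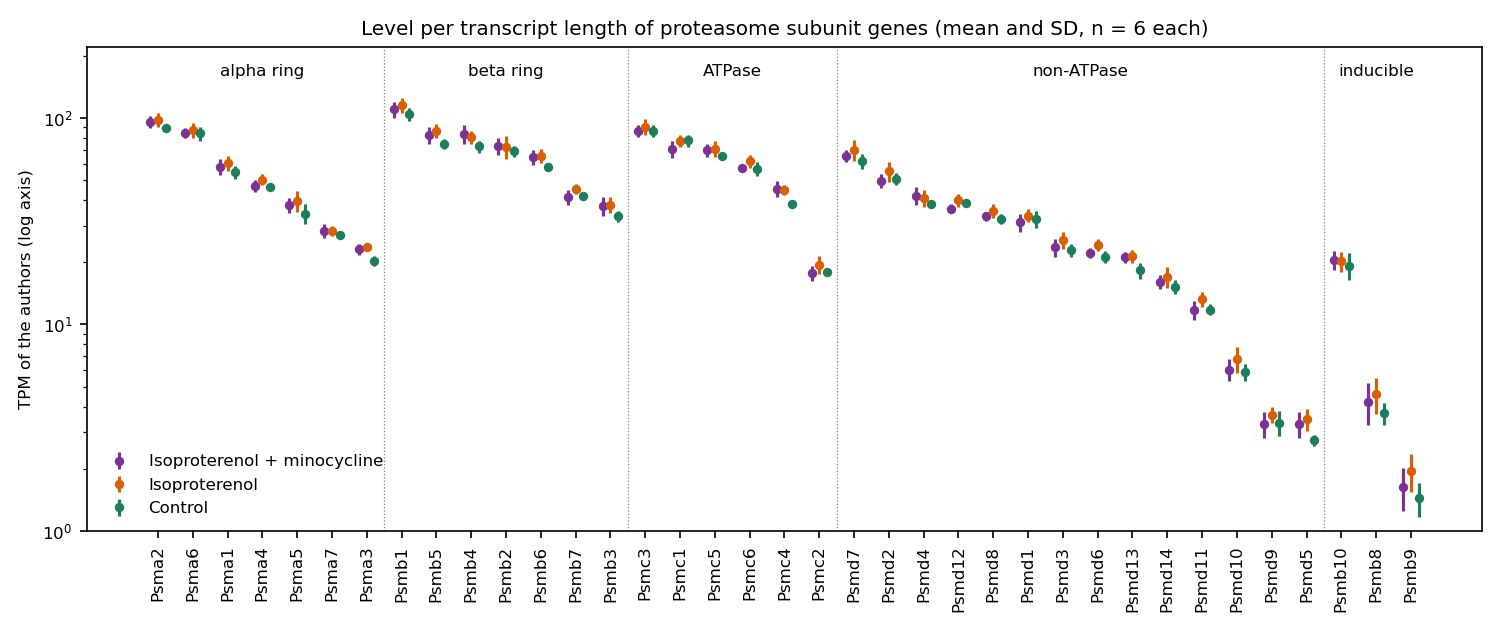
TPM of the authors (log axis) for 34 subunit genes and the 3 inducible subunits, ordered by level within each class; points are means and bars SDs of 6 libraries per group. Psmb1 at 109.7 TPM and Psmd5 at 3.17 TPM mark the ends of the 34 genes. TPM values carry no TMM factor, so no difference between groups was read from them.

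The 34 genes also varied less between libraries than the median gene tested, but they were not set against genes of like level. The coefficient of variation between libraries of a group, beyond counting noise, had a median of 7.15% over the 34 genes and 11.6% over all genes tested. It ran from 5.69% for the ATPase Psmc5 to 10.2% for Psmd9, and was 29.8% for Psma8 and 20.4% for Psmc3ip. At this spread and at their counts, the median standard error of a log2 fold change was 0.054 for the 34 genes, against 0.109 for all genes tested.

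Promoter windows were examined because subunit genes are known to share regulators, chiefly Nfe2l1 (Nrf1), which binds antioxidant response elements. RefSeq windows (GRCm38.p6, 250 bases before to 50 after a start site) were found for 29 of the 36 genes. The element's core, TGACNNNGC on either strand, was in the windows of 5 of these 29 genes (17.2%): Psmb5, Psmb6, Psmc6, Psmd9 and Psmd12. It was in those of 14% of all symbols, and in 12.4% of single windows. The CCAAT box, CCAAT on either strand, was in 12 of 29 genes (41.4%) and in 41.1% of all symbols. The GC box, GGGCGG on either strand, was in 18 of 29 genes (62.1%) and in 38.2% of all symbols. The symbols compared were not limited to genes expressed in these libraries, and promoters of like GC content were not compared. These are matches of letters and no evidence of binding.

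The windows that follow belong to the 3 genes that differed from controls past the threshold, Psmc1, Psmd12 and Psmc2, and to the catalytic subunits with a core match, Psmb5 and Psmb6. Each is printed 5′ to 3′ on the gene's strand, with the capitals marking motif matches. Psmc1 (chr12:100110002-100110201, plus strand) and Psmc2 (chr5:21785175-21785274, plus strand) hold a CCAAT box. Psmd12 (chr11:107479278-107479397, plus strand) holds a reversed core and a pair of reversed GC boxes, while Psmb5 (chr14:54617996-54618055, minus strand) and Psmb6 (chr11:70525297-70525356, plus strand) hold a core in forward direction. The Psmd12 stretch is the far end of its window, and the other stretches end at the base before the start site. Psmc2 has a further RefSeq window (its stretch before the start site is chr5:21786647-21786746, plus strand), in which the 3 motifs had 0 matches.
Psmc1: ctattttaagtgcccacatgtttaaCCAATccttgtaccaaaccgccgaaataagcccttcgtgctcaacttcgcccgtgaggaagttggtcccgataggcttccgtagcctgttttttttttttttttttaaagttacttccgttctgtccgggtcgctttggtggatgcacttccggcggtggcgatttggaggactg
Psmc2: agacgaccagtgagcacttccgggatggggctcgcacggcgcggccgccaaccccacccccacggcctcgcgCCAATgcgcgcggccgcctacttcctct
Psmd12: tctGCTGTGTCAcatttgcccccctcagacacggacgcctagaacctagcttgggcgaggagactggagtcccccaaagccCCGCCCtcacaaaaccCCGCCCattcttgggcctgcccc
Psmb5: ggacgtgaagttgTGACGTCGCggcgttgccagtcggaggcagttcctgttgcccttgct
Psmb6: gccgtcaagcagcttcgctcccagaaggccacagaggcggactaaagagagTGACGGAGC

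Isoproterenol against control asks what the infusion changed among the subunit genes. Of the 36, 0 were higher and 1, the ATPase Psmc1, was lower (edgeR's quasi-likelihood test, Benjamini-Hochberg adjusted p under 0.05 over all 13281 genes), where 12.6% of all genes tested were called, 6.94% higher and 5.62% lower. The median log2 fold change of the 36 was -0.046, beside 0.001 for all genes, and it was 0.096, beside 0.144 for all genes, without the scaling factors. On both scales the median of the 36 lay slightly below that of all genes. At an unadjusted p under 0.05, 0 of the 36 were higher and 5 lower, beside 14.8% and 12.8% of all genes. DESeq2 called 4 lower (Psma6, Psmc1, Psmc3 and Psmd12), beside 7.21% of all genes, and limma-voom 3 (Psma6, Psmc1 and Psmd12), beside 7.44%. Without the scaling factors 4 were called higher (Psma3, Psmc4, Psmd13 and Psmd5) and 0 lower, beside 20.2% and 1.83% of all genes.

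By role, the median log2 fold change in isoproterenol against control was -0.057 for the 8 alpha-ring genes, -0.034 for the 7 beta-ring genes, -0.074 for the 7 ATPase genes and -0.023 for the 14 non-ATPase genes. Without Psma8 and Psmc3ip the alpha-ring and ATPase medians were -0.047 and -0.071, and that of the 34 genes was -0.045. The calls were 0 in both core classes (Psma and Psmb), beside 12.6% of all genes tested. For 33 of 34 genes the 95% interval of the log2 fold change lay within 0.3 of 0, a change of 1.23-fold, and Psmd5 was the exception. The intervals take the scaling factors as given.

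Added minocycline was assessed by setting isoproterenol and minocycline against isoproterenol. Of the 36 genes, 0 were higher and 0 lower, in edgeR, DESeq2 and limma-voom alike, where 0.0527% of all genes tested were called by edgeR, 0.00753% higher and 0.0452% lower. DESeq2 called 0.279% of all genes and limma-voom 0.0602%. At an unadjusted p under 0.05 there was 1 gene, Psmc3ip, which was higher, and 0 of the 34 genes without it and Psma8, beside 3.88% of all genes higher and 3.73% lower. The median log2 fold change was -0.009, for the 36 and for the 34 genes alike, beside -0.003 for all genes, and -0.052, beside -0.044, without the scaling factors. The groups overlapped for each of the 36 genes. Among all genes tested, 0.188% did not overlap with the isoproterenol and minocycline group higher, and 0.158% with it lower. All 34 intervals lay within 0.3 of 0: the lowest bound was -0.29 for Psmd9 and the highest 0.23 for Psmb4.

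Isoproterenol and minocycline against control gave 0 genes higher and 3 lower of the 36, namely Psmc1, Psmc2 and Psmd12, where 19.3% of all genes tested were called, 10.2% higher and 9.05% lower. This comparison and that of isoproterenol alone share the control libraries. The median log2 fold change was -0.042, beside 0.003 for all genes, and 0.06, beside 0.105, without the scaling factors. Medians by role were -0.10 for ATPase, -0.072 for non-ATPase, -0.038 for alpha-ring and 0.024 for beta-ring genes. Without Psma8 and Psmc3ip the median was -0.109 for ATPase genes, -0.032 for alpha-ring genes and -0.042 for the 34 genes. At an unadjusted p under 0.05, 2 of the 36 were higher and 9 lower, beside 17% and 16.4% of all genes. DESeq2 called 8 lower (Psma6, Psmb7, Psmc1, Psmc2, Psmc3, Psmd1, Psmd2 and Psmd12), beside 10.9% of all genes, and limma-voom the 3 named, beside 8.69%. Without the scaling factors Psma3, Psmc4 and Psmd13 were called higher and Psmc1 lower, beside 17.5% and 4.1% of all genes. The 3 of 36 called lower by edgeR were a share close to the 9.05% of all genes. Leaving out isoproterenol and minocycline library 5 raised the edgeR count to 6, with Psmb7, Psmd1 and Psmd2.

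**Figure D2:**
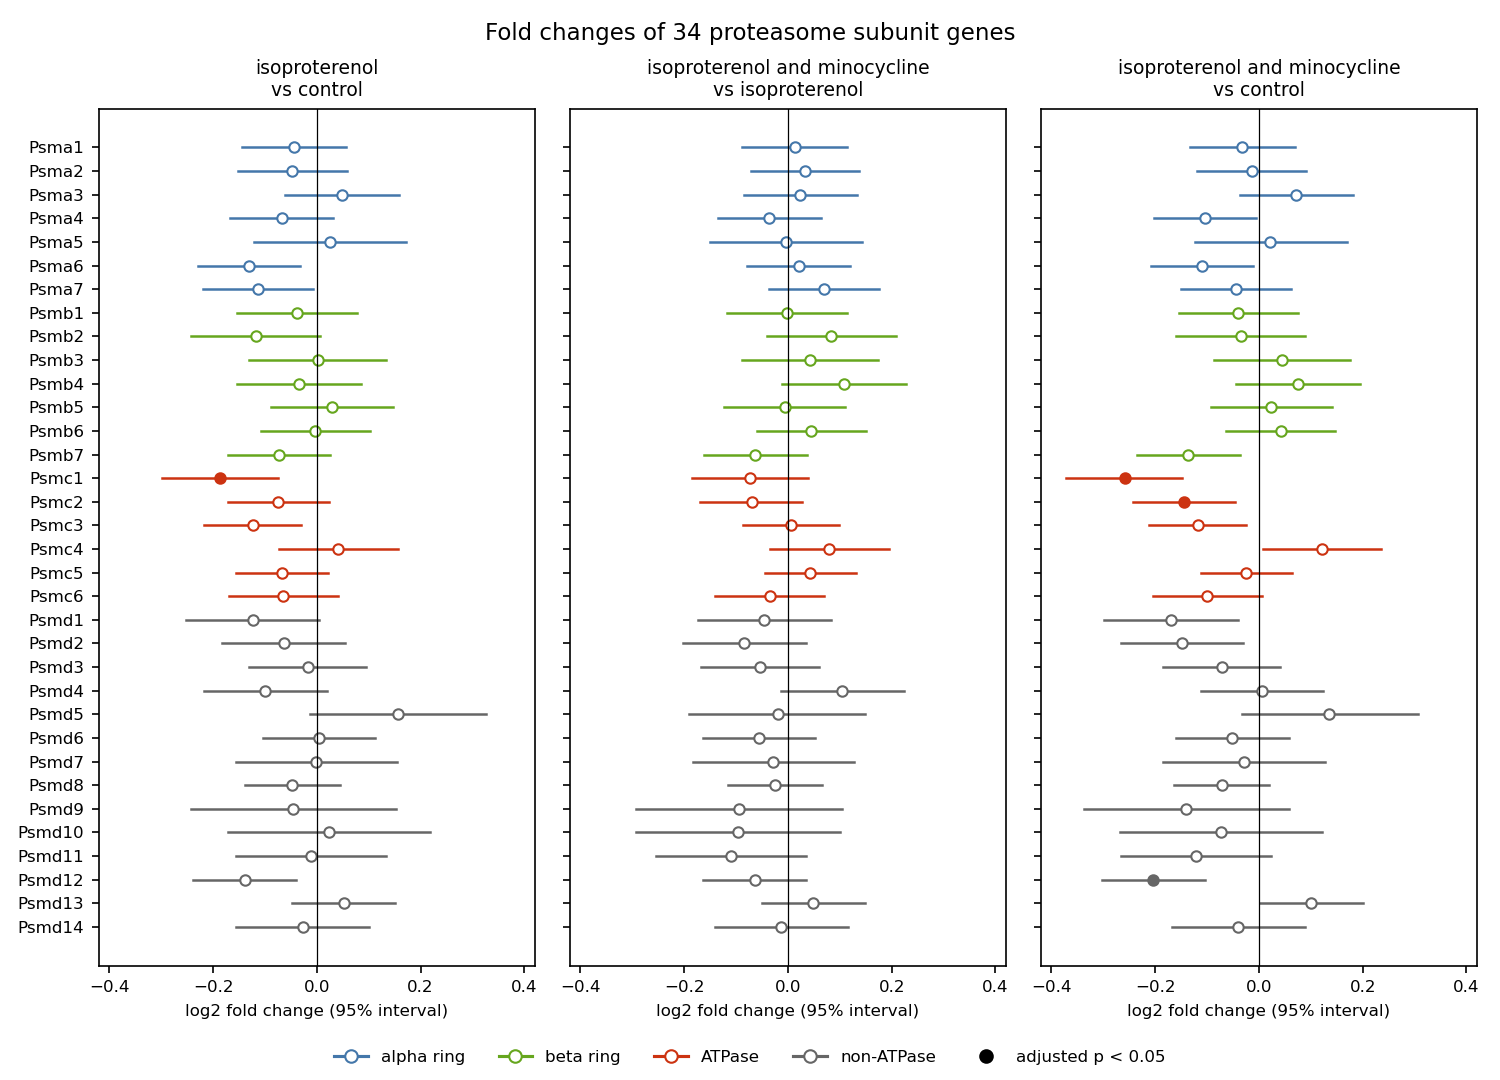
Log2 fold change with its 95% interval (horizontal axis) of 34 subunit genes (rows, coloured by class) in the 3 comparisons, from edgeR. Filled points mark an adjusted p under 0.05: Psmc1 in isoproterenol against control, none in added minocycline, and Psmc1, Psmc2 and Psmd12 in isoproterenol and minocycline against control.

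Among the ATPases, Psmc1 (chr12:100110186-100123364, plus strand) was the gene with the clearest difference. Its product docks into the alpha ring and helps to open the gate. It had 1091 to 1841 counts per library. Its level was 61.2, 69.0 and 75.5 CPM (lowest, median and highest of 6) with isoproterenol and minocycline, 69.1, 71.7 and 77.1 CPM with isoproterenol, and 76.5, 81.25 and 87.4 CPM in controls. All libraries given both drugs lay below all controls, and the isoproterenol libraries overlapped the controls only at the edge. The log2 fold change was -0.19 ± 0.054 (SE) for isoproterenol against control (adjusted p 0.0259, edgeR), -0.073 for added minocycline (adjusted p 0.762) and -0.26 for both drugs against control (adjusted p 0.00201). The call for isoproterenol alone was lost when control 4, control 6 or isoproterenol 5 was left out (adjusted p 0.019 to 0.071 over the 12 libraries left out in turn). It held in 9 of 13 alternatives and was lost with no filter on low counts (adjusted p 0.0535), without the 4 libraries high in the atrial marker Myl7 (0.161), without the scaling factors (0.616) and where a fold of at least 1.2 was required. The call for both drugs held with each library left out in turn, with log2 fold changes of -0.26 to -0.16 over the alternatives. Of the 13 alternatives it held in 12, and was lost where a fold of at least 1.2 was required.

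Psmc2, the ATPase at chr5:21785283-21803787 (plus strand), had 54.3, 56.5 and 59.8 CPM with isoproterenol and minocycline, 55.8, 60.5 and 62.0 CPM with isoproterenol, and 59.97, 62.9 and 67.5 CPM in controls. The libraries given both drugs lay just below the controls, without overlap, and those given isoproterenol alone lay among both. Its log2 fold change was -0.14 ± 0.047 (SE) for both drugs against control (adjusted p 0.0367, edgeR), with -0.074 for isoproterenol alone (adjusted p 0.328) and -0.070 for added minocycline (adjusted p 0.747). This call lay near the threshold, and leaving out any of several libraries of either group ended it. It was lost in 8 of 12 fits that left 1 out (control 1, 3, 4 or 6, or isoproterenol and minocycline 2, 3, 4 or 6), with adjusted p 0.0303 to 0.0894. It held in 8 of 13 alternatives: it was lost with no filter on low counts (adjusted p 0.0985), in a fit of only the 12 libraries compared (0.0608), without the 4 libraries high in Myl7 (0.126), without the scaling factors (0.655) and where a fold of at least 1.2 was required.

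Psmc3, another ATPase whose tail takes part in opening the gate, was the ATPase with the highest level per length at 87.8 TPM. It had 142, 143 and 151 CPM with isoproterenol and minocycline, 136, 144 and 150.5 CPM with isoproterenol, and 149.8, 153 and 167 CPM in controls. The treated groups lay almost wholly below the controls, with an overlap at the edge. The log2 fold change was -0.12 for isoproterenol (adjusted p 0.0746, edgeR) and -0.12 for both drugs (adjusted p 0.0704), both short of the threshold, and 0.006 for added minocycline. Psmc5, the ATPase with the smallest spread, had 59.97, 62.1 and 63.8 CPM with both drugs, 58.9, 60.3 and 61.5 CPM with isoproterenol and 61.1, 62.5 and 66.3 CPM in controls, groups that overlapped (log2 fold change -0.067, adjusted p 0.318, for isoproterenol against control).

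The name match Psmc3ip had 1.41, 1.82 and 3.16 CPM with isoproterenol and minocycline, 1.06, 1.45 and 2.19 CPM with isoproterenol, and 1.44, 1.72 and 2.14 CPM in controls. Its log2 fold change of 0.49 for added minocycline, with a 95% interval of 0.041 to 0.93, did not pass (adjusted p 0.607, edgeR), and the groups overlapped.

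**Figure D3:**
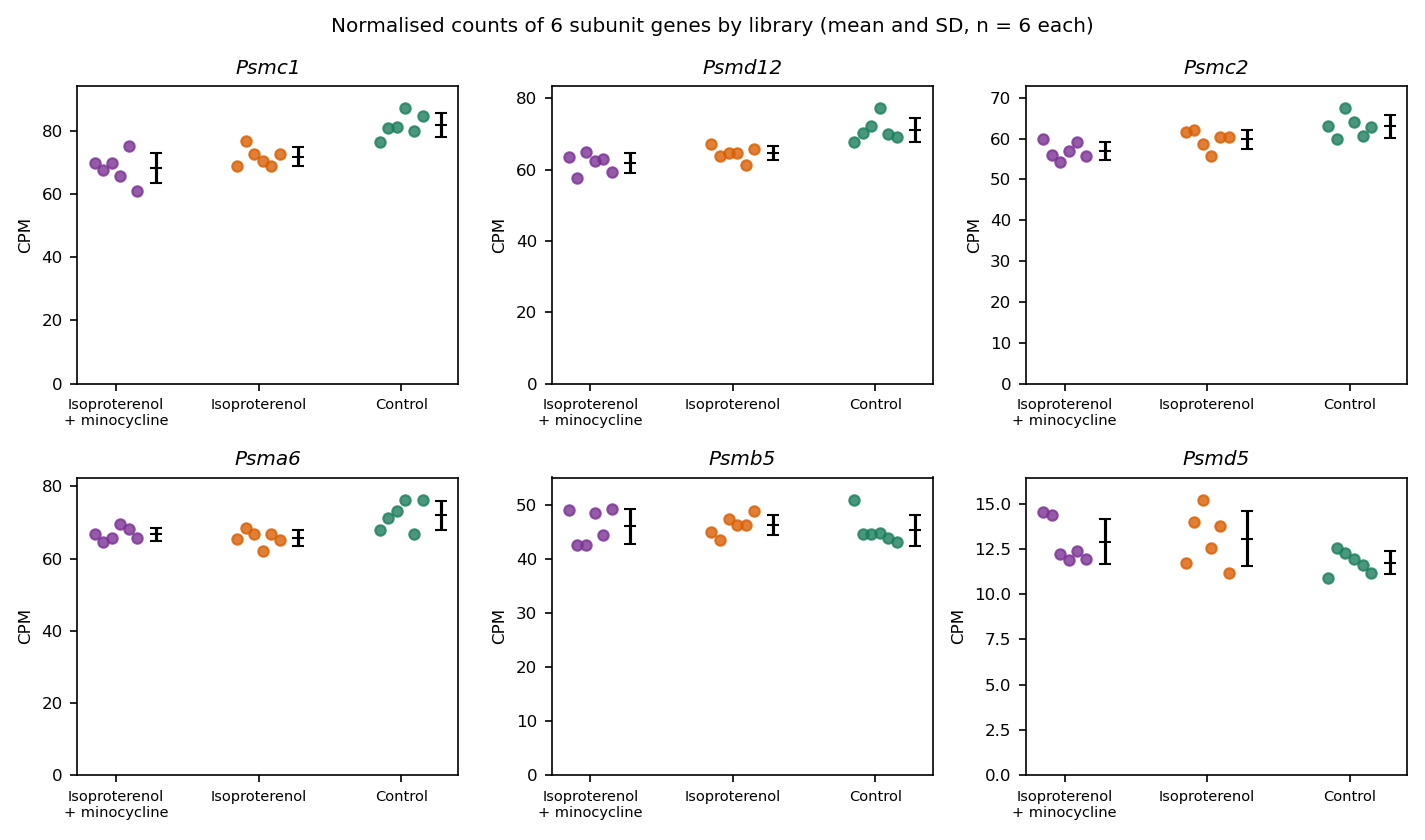
CPM (TMM-scaled, axes from 0) of 6 subunit genes in each library, with the mean and SD of 6 libraries per group beside the points. Psmc1, Psmc2 and Psmd12 libraries given both drugs lay below all control libraries, while Psma6, Psmb5 and Psmd5 overlapped between groups.

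Of the non-ATPase subunits, Psmd12 (chr11:107479484-107504362, plus strand), a scaffold protein of the lid, was the one called. Its level was 57.5, 62.6 and 64.8 CPM with isoproterenol and minocycline, 61.4, 64.7 and 67.3 CPM with isoproterenol, and 67.8, 70.2 and 77.3 CPM in controls. Both treated groups lay below the lowest control. Non-overlapping groups with the control higher were found for 3.59% of all genes in the comparison of both drugs with control, and 3 of the 36 genes (Psmc1, Psmc2 and Psmd12) were among them. The same held for 3.25% of all genes in isoproterenol against control, with Psmd12 alone of the 36. Groups not overlapping in the other direction made up 3.55% and 3.66% of all genes in these comparisons and 0 of the 36. Its log2 fold change was -0.20 ± 0.048 (SE) for both drugs (adjusted p 0.00519, edgeR), -0.14 for isoproterenol, which missed the threshold (adjusted p 0.059), and -0.064 for added minocycline (adjusted p 0.764). The call for both drugs held in each fit that left out 1 library, and in 11 of 13 alternatives. It was lost without the scaling factors (adjusted p 0.151) and where a fold of at least 1.2 was required.

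Psmd1 encodes the large scaffold of the base and had 77.5, 92.4 and 99.8 CPM with isoproterenol and minocycline, 90.04, 92.4 and 100.7 CPM with isoproterenol and 92.0, 100.2 and 112.9 CPM in controls. Its groups overlapped, with the treated ones toward the lower end (log2 fold change -0.17 for both drugs against control, adjusted p 0.0582, edgeR). Psmd11, a lid subunit, had 41.2, 48.7 and 54.6 CPM with both drugs, 46.0, 52.6 and 56.2 CPM with isoproterenol and 49.5, 52.1 and 56.9 CPM in controls. It had the lowest log2 fold change of the 34 for added minocycline, -0.11 (adjusted p 0.74), well inside the overlap of the groups.

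Psmd4 and Psmd14, which handle ubiquitin, were not called in any comparison (edgeR). Psmd4, a receptor for ubiquitin chains, had 68.5, 75.1 and 86.6 CPM with isoproterenol and minocycline, 65.35, 70.8 and 74.2 CPM with isoproterenol and 71.6, 74.5 and 78.9 CPM in controls. The isoproterenol group was the lowest in median, and all groups overlapped (log2 fold change -0.099 for isoproterenol against control, adjusted p 0.27, and 0.105 for added minocycline, adjusted p 0.696, edgeR). Psmd14, which cuts the chain from the substrate, had 26.9, 29.5 and 31.5 CPM with both drugs, 28.2, 29.1 and 31.6 CPM with isoproterenol and 25.9, 30.3 and 32.9 CPM in controls. Its log2 fold change of -0.027 for isoproterenol had a 95% interval of -0.16 to 0.10.

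In the other direction, the highest fitted values in isoproterenol against control were those of Psmd5 and Psmd13. Psmd5 had 11.9, 12.3 and 14.5 CPM with isoproterenol and minocycline, 11.15, 13.15 and 15.2 CPM with isoproterenol and 10.9, 11.8 and 12.5 CPM in controls. The groups overlapped, and its log2 fold change of 0.16 ± 0.082 (SE) for isoproterenol did not pass (adjusted p 0.222, edgeR). Psmd13, a lid subunit, had 43.95, 45.3 and 48.75 CPM with both drugs, 42.7, 44.8 and 45.3 CPM with isoproterenol and 40.3, 42.4 and 46.3 CPM in controls. Its log2 fold change of 0.052 for isoproterenol and 0.10 for both drugs also missed the threshold (adjusted p 0.517 and 0.141, edgeR). Where strand is not known, reads in the stretch it shares with Sirt3 cannot be told apart, and the length of that stretch was not measured.

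The beta ring holds the cutting sites, and 0 of its 7 genes were called in any comparison by edgeR. Of all genes tested, 12.6% were called for isoproterenol against control, 0.0527% for added minocycline and 19.3% for both drugs against control. In a set of 7 genes, 0 is not far from these shares. Psmb5, with the chymotrypsin-like site, had 42.5, 46.4 and 49.1 CPM with isoproterenol and minocycline, 43.5, 46.2 and 48.9 CPM with isoproterenol and 43.0, 44.5 and 50.9 CPM in controls. Psmb6, with the caspase-like site, had 73.8, 76.0 and 84.3 CPM with both drugs, 70.1, 75.1 and 79.3 CPM with isoproterenol and 71.5, 75.6 and 78.6 CPM in controls. For both genes the groups covered nearly the same range. The 95% intervals for isoproterenol against control were -0.088 to 0.15 for Psmb5 and -0.11 to 0.10 for Psmb6 on the log2 scale.

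Psmb7, with the trypsin-like site, differed from that pair. It had 86.1, 89.6 and 97.0 CPM with isoproterenol and minocycline, 90.5, 94.8 and 98.4 CPM with isoproterenol and 93.2, 100.7 and 105.7 CPM in controls. All 6 libraries given both drugs lay below the control mean, though the groups overlapped, and the log2 fold change of -0.14 lay just outside the threshold (adjusted p 0.0508, edgeR). It passed in 3 of 13 alternatives (with RLE size factors, in DESeq2 and with the atrial covariate) and in 4 of 12 fits that left out 1 library.

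Of the beta subunits without a cutting site, Psmb1, Psmb2 and Psmb4 had log2 fold changes of -0.038, -0.12 and -0.034 in isoproterenol against control (adjusted p 0.699, 0.205 and 0.751, edgeR). Psmb4 had the highest value of the 34 for added minocycline: 64.9, 73.8 and 79.1 CPM with isoproterenol and minocycline, against 64.3, 69.4 and 72.3 CPM with isoproterenol. The ranges overlapped (log2 fold change 0.11, adjusted p 0.696).

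In the alpha ring, Psma6 was nearest to a call in isoproterenol against control. It had 64.6, 66.2 and 69.5 CPM with isoproterenol and minocycline, 62.1, 66.05 and 68.4 CPM with isoproterenol and 66.9, 72.2 and 76.4 CPM in controls. All libraries of both treated groups lay below the control mean, and the ranges overlapped (log2 fold change -0.13, adjusted p 0.074, for isoproterenol, and -0.11, adjusted p 0.108, for both drugs, edgeR). Psma7 had 52.5, 55.7 and 60.8 CPM with both drugs, 50.5, 53.0 and 56.7 CPM with isoproterenol and 55.3, 56.5 and 62.0 CPM in controls, with a log2 fold change of -0.11 for isoproterenol (adjusted p 0.147). Psma4 and Psma2 had log2 fold changes of -0.068 and -0.047 for isoproterenol (adjusted p 0.373 and 0.589), and their groups overlapped. Psma8, at 0.153 to 0.895 CPM over the 18 libraries, had too few counts to show a change: its 95% interval for both drugs against control was -1.37 to 0.23.

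Summed over a class, the normalised counts of the 6 ATPase genes were 440.4 to 463.0 CPM with isoproterenol and minocycline, 446 to 467 CPM with isoproterenol and 467 to 506 CPM in controls. The means were 452 ± 10.3, 454 ± 8.62 and 484 ± 14.99 CPM (SD, n = 6 each) in that order. The libraries given both drugs lay below all controls, and the isoproterenol libraries overlapped the controls only at the edge. This separation depends on the scaling factors, 0.944 to 1.05 with both drugs and 0.929 to 0.98 in controls. Without them the ranges of the ATPase sums overlap. The 14 non-ATPase genes summed to 748 ± 22.7, 766 ± 22.8 and 794 ± 20.3 CPM, the 7 alpha-ring genes to 419 ± 11.2, 415 ± 9.69 and 431 ± 11.6 CPM and the 7 beta-ring genes to 472 ± 19.54, 464.0 ± 14.9 and 476 ± 16.9 CPM, and these groups overlapped. A sum is led by its highest genes, so Psmc3 weighs most in the ATPase sum. From controls to both drugs, mean CPM went from 81.91 to 68.45 for Psmc1 and from 156.7 to 144.5 for Psmc3. Of the 6 ATPase genes, 5 had a negative log2 fold change in that comparison and 1, Psmc4, a positive one. Psmc4 went from 57.7 to 62.77 CPM (log2 fold change 0.121, adjusted p 0.126, edgeR). No test was made on these sums, because the genes were chosen with earlier results known.

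Ratios of the sums do not depend on scaling factors. The ATPase sum was 50.7 ± 1.57% of the core sum with isoproterenol and minocycline, 51.7 ± 1.23% with isoproterenol and 53.4 ± 1.88% in controls. The non-ATPase sum was 83.9 ± 4.06%, 87.2 ± 2.74% and 87.6 ± 3.05% of the core sum, and the beta-ring sum 113 ± 2.65%, 112 ± 2.87% and 111 ± 2.4% of the alpha-ring sum, in the same order. The ranges of all these ratios overlapped between the groups.

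**Figure D4:**
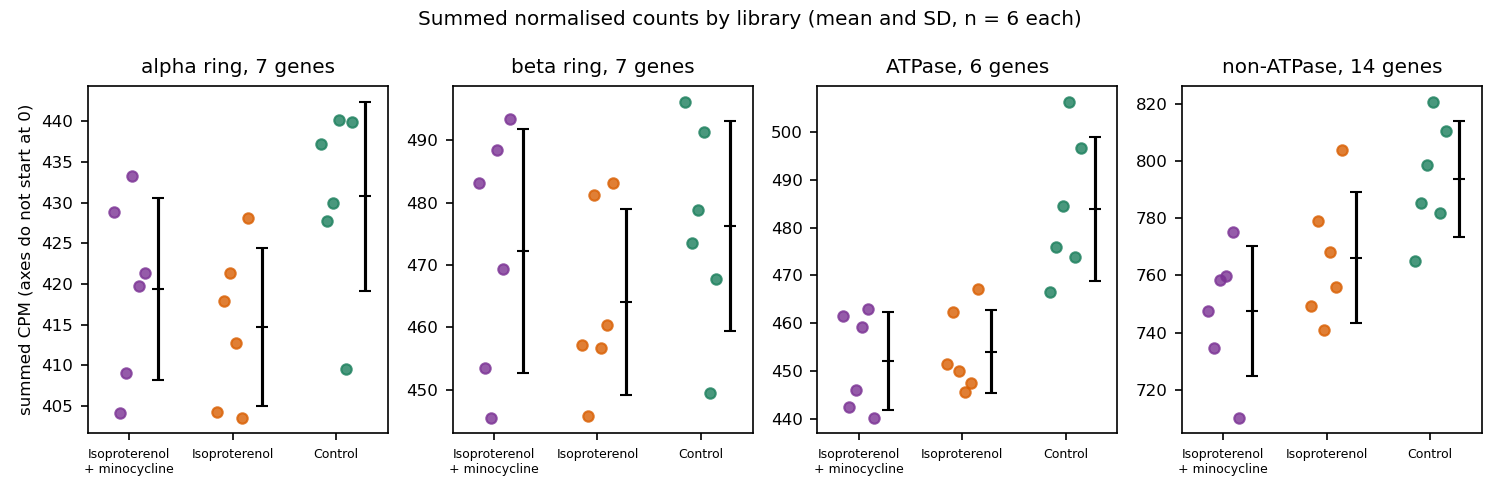
Summed CPM (TMM-scaled, axes not from 0) of each class in each library, with the mean and SD of 6 libraries per group beside the points. The ATPase sums of libraries given both drugs, 440.4 to 463.0 CPM, lay below all control sums, 467 to 506 CPM, and the other 3 classes overlapped. The separation of the ATPase sums depends on the TMM factors.

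The inducible subunits replace Psmb5, Psmb6 and Psmb7 in the immunoproteasome, and 0 of these 3 genes were called in any comparison (edgeR). For 3 genes this count is near the shares of all genes: 12.6% for isoproterenol, 0.0527% for added minocycline and 19.3% for both drugs. Per length, Psmb8 was 5.1 ± 0.891% of Psmb5 with isoproterenol and minocycline, 5.27 ± 0.697% with isoproterenol and 4.98 ± 0.571% in controls. Psmb9 was 2.54 ± 0.58%, 2.96 ± 0.495% and 2.49 ± 0.463% of Psmb6, and Psmb10 was 49.3 ± 3.11%, 44.5 ± 4.38% and 46.0 ± 6.89% of Psmb7 in the same order. The groups overlapped in each ratio. Psmb9 overlaps Tap1, which had 198% as many counts, so its level is uncertain to a degree that was not measured.

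Of 38 other genes of the pathway that were tested, 0 were higher and 2 lower in isoproterenol against control, 0 and 0 for added minocycline, and 0 and 3 for both drugs against control (edgeR, adjusted p under 0.05 over all genes). Of all genes tested, 5.62% were lower in isoproterenol against control and 9.05% with both drugs against control, so the counts of 2 and 3 lie near these shares. Their median log2 fold changes were -0.048, -0.037 and -0.078 in these comparisons, beside 0.001, -0.003 and 0.003 for all genes. Pomp, the chaperone that matures the core particle, had 36.8, 41.5 and 44.0 CPM with isoproterenol and minocycline, 37.3, 39.3 and 44.5 CPM with isoproterenol and 39.2, 47.65 and 48.4 CPM in controls. It fell with isoproterenol (log2 fold change -0.22, adjusted p 0.0315), and the ranges overlapped through control 5. The call held only without control 5, isoproterenol 3 or isoproterenol 4 and was lost in the other 9 of 12 fits that left out 1 library (adjusted p 0.00881 to 0.0741). Of the 13 alternatives it held in 11, and was lost without the scaling factors (adjusted p 0.432) and where a fold of at least 1.2 was required. Ufd1l, a cofactor of the segregase Vcp, had a log2 fold change of -0.17 in isoproterenol against control (adjusted p 0.0308). Leaving out control 2, 4, 5 or 6, or isoproterenol 1, 5 or 6 ended this call (highest adjusted p 0.0816), and it held in 8 of 13 alternatives (highest adjusted p 0.732, without the scaling factors).

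With both drugs against control, Psme4, Psme3 and Vcp were lower. Psme4, an activator that caps the core without ATP, had 114, 141 and 179 CPM with isoproterenol and minocycline, 148, 186 and 214 CPM with isoproterenol and 177, 199.8 and 227 CPM in controls. It fell by 0.47 on the log2 scale (adjusted p 0.00496, edgeR), more than any of the 36 genes that were called, and the isoproterenol group had a median between the others, with overlapping ranges. The fitted value was -0.17 for isoproterenol alone (adjusted p 0.328) and -0.30 for added minocycline (adjusted p 0.524). Vcp, the ATPase that extracts ubiquitylated proteins for the proteasome, had 252, 289 and 311 CPM with both drugs, 287, 312 and 331 CPM with isoproterenol and 330.0, 337 and 356 CPM in controls. It fell by 0.25 with both drugs (adjusted p 0.00308), without overlap with the controls, and the call was lost without the scaling factors (adjusted p 0.0766) and where a fold of at least 1.2 was required. Psme3, a nuclear activator, fell by 0.16 (adjusted p 0.0445), a call that held only without control 5, or isoproterenol and minocycline 1 or 3, and was lost in the other 9 of 12 fits (adjusted p 0.0262 to 0.11). It held in 7 of 13 alternatives (highest adjusted p 0.496, without the scaling factors), and the Psme4 call held in all 13.

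Of the regulators, Nfe2l1, the factor that induces subunit genes when proteasome activity falls, had 284, 356 and 411 CPM with isoproterenol and minocycline, 354, 389 and 418 CPM with isoproterenol and 351, 366 and 409.5 CPM in controls. Its log2 fold change was 0.060 for isoproterenol (adjusted p 0.673, edgeR) and -0.084 for both drugs (adjusted p 0.498), and the groups overlapped.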

How the data were processed

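Polyadenylated RNA of 18 left ventricular samples was sequenced with paired reads of 150 bases and trimmed in CLC Genomics Workbench 21.0.3 (quality limit 0.05, at most 2 ambiguous bases), per the labels' protocols. edgeR is named, without a role, in the submitters' processing notes. Mapping settings, build and strand of counting: not given in the sources used here. One deposited table holds total counts per gene and library, and the authors' TPM values beside them. Both were used as deposited, TPM for levels between genes only, and 0 per-sample columns matched no library. Columns were matched by the number in each sample's description, while the sample titles carry other numbers. Of the 36 gene identifiers, all 36 are in GENCODE M21 on GRCm38, 28 with identical coordinates. Gene coordinates are those of the deposited table, and promoter windows those of RefSeq (GRCm38.p6).

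The genes and lists were chosen with earlier results of these data known. Counts were filtered with filterByExpr by group (13281 genes), scaled by TMM and tested in edgeR 4.0.16 (R 4.3.3; estimateDisp, robust glmQLFit, glmQLFTest) in 1 fit of all 18 libraries. Adjustment was by Benjamini-Hochberg over all genes tested, 2-sided, and intervals are at 95%. The scripts were tested on simulated counts. Replicate numbers are not shared between groups in the labels, and no batch or date is given. Within a group, 0 of 15 pairs of libraries held identical values, and chi-square per degree of freedom was 5.30 to 33.3.

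Named were the up to 4 genes per class with the smallest p in isoproterenol against control, the 2 highest and 2 lowest fold changes in each comparison, Psmb5, Psmb6, Psmb7, Psmd4 and Psmd14 (23 genes in all). From the 39 pathway genes, of which 38 were tested, called genes were named together with Nfe2l1, Pomp, Psme4 and the inducible subunits. A further gene of that list is not reported here and was left out of its counts and medians. Genes named outside this rule, as those other methods called, were chosen after their values were seen. An overlapping gene is reported where it held at least 20% as many counts, whatever the length of the overlap, which was not measured. Alternatives were DESeq2 1.42.0, limma-voom (3.58.1) with quality weights, RLE and upper-quartile scaling, other filters, the 12 libraries compared, no mitochondrially encoded genes, a fold of at least 1.2, omission of the 4 libraries above 80 CPM of the atrial marker Myl7, an atrial covariate and leaving out each library. Library totals without scaling factors were added after the TMM factors had been seen.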

Additional observations from a re-analysis of the deposited data

Results flagged for a closer look

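In 3 of 96 sets of a gene and a group, 1 library stood apart from its 5 group mates by Dixon's test at 95%. Chance flags about 1 in 20 such groups, so 3 of 96 is no more than chance gives. Psmb5 had 50.94 CPM in control 1, where the other controls had 43.0 to 44.7 CPM. Psmc3 had 150.9 CPM in isoproterenol and minocycline 5, where the others of that group had 142 to 144.0 CPM. The assembly chaperone Pomp had 39.21 CPM in control 5, where the other controls had 45.5 to 48.4 CPM.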

How the results depend on the processing

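Each count or median was recomputed under the alternatives. In isoproterenol against control the count of lower genes was 1. It was 0 with a fold of at least 1.2, library totals, no filter or omission of the 4 Myl7-high libraries, 2 without mitochondrially encoded genes or with the atrial covariate, 3 with limma-voom, 4 with DESeq2, and 0 to 1 with each library left out. In isoproterenol and minocycline against control it was 3. It was 0 with a fold of at least 1.2, 1 with library totals, and 2 with no filter, with only the 12 libraries compared or with the Myl7-high libraries omitted. It was 4 with RLE size factors or with the atrial covariate, 8 with DESeq2 and 2 to 6 with each library left out. Counts of higher genes were 0 in each comparison, and 4 and 3 with library totals in isoproterenol and in both drugs against control. Library totals shifted the median of all genes by 0.143, -0.041 and 0.102 (log2) for isoproterenol, added minocycline and both drugs, and the medians of the 36 to 0.096, -0.052 and 0.06. The distance of the 36 from all genes was then -0.048, -0.008 and -0.045. Counts for added minocycline were 0 in all of these settings. Of 2395 values of named genes under alternatives, 63 lost a call, 27 gained one and 104 changed sign with neither value called, 28 of them by more than the standard error and all 28 under library totals. Called values that changed sign numbered 0. No paired analysis was possible because the labels give the groups no shared replicate numbers. The 6 libraries per group and the median standard error of 0.054 (log2) limit what could be detected.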
